A study of Mus musculus with 24 samples.

Results

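PGC-1 coactivators and the mitochondrial biogenesis factors they work with were followed in optically exercised C2C12 muscle. The set held 9 genes of the 56941 listed: the coactivators Ppargc1a, Ppargc1b, and Pprc1, the nuclear factors Esrra, Nrf1, and Gabpa, and the mitochondrial DNA factors Tfam, Tfb2m, and Polrmt. They were taken by gene name, and the set was chosen with earlier results of these data known. All 9 had a count and all 9 passed the filter on low counts that left 13315 genes for testing.

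C2C12 is a mouse myoblast line. The cells carried the blue light-gated channel ChR2 tagged with tdTomato, were differentiated on fibrin hydrogel, and were lit each day in sessions of 60 min at 1 Hz, 4 Hz, or 10 Hz. Control tissues carried the same channel and were left unlit, and the paper describes spontaneous twitching in every condition, so the controls were unstimulated but not still. Each of the 4 conditions had 6 libraries (biological replicates of 1 cell line), or 24 in all. The comparison asks how stimulation frequency moved the transcripts of this pathway after about 2 weeks of daily training.

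PGC-1 proteins do not bind DNA themselves. They are recruited by transcription factors such as ERR alpha, NRF1, and GABP, which switch on nuclear genes of the respiratory chain together with the factors that copy and transcribe mitochondrial DNA. In skeletal muscle, PGC-1 alpha is best known as the member of the family that contraction induces, within hours of a bout and with repeated endurance exercise. At the end of the chain, the RNA polymerase POLRMT transcribes the mitochondrial genome with TFAM, which bends and packages the DNA, and TFB2M, which helps to open the promoter.

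At 4 Hz, the coactivators split: Ppargc1a rose by 41.2% on the CPM scale (not called on TPM), Ppargc1b fell by 44.9%, and Pprc1, the most abundant of them, was not called. In the same tissues Gabpa fell by 18.8%, Tfb2m fell by 22.1%, Tfam fell by 25%, and Polrmt fell by 34.6%, while Esrra was called 21.3% higher on CPM and not on TPM. Over all genes, 27.5% were called higher and 23.9% lower at 4 Hz. At 1 Hz only Ppargc1b and Polrmt were called, both lower, where 18.1% of all genes were called lower. At 10 Hz none of the 9 was called, with 0.015% and 0.0225% of all genes called higher and lower.

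Levels are counts per 1000000 (CPM) after edgeR's TMM scaling, or transcripts per 1000000 (TPM) where genes are compared with each other, because TPM divides by transcript length. Log2(fold change) and its standard error (SE) come from edgeR's quasi-likelihood test, with p-values adjusted over all 13315 genes, and a gene is called at an adjusted p under 0.05. Total estimated counts per library ran from 8052369 to 18159144, and the biological coefficient of variation was 14.8%. TMM factors lay between 1.02 and 1.07 in the controls, and under 0.95 in 4 libraries, which were 1 Hz replicates 4 and 6 and 4 Hz replicates 3 and 4. Results are also given without these 4 libraries where that changed a call or a direction or moved a count by over 1.5 times. The labelled cell type is myoblast, while the myotube genes checked were detected in all 24 libraries, led by Acta1 with a median of 6720 TPM. Summed over 10 myotube genes, TPM ran from 16410 to 20300 in the controls and from 12130 to 18370, 14510 to 18020, and 15150 to 17080 at 1, 4, and 10 Hz, and over 8 myoblast genes from 87.0 to 123.5 in the controls and from 79.6 to 149.8 at the 3 frequencies. Adipocyte and endothelial markers were at or near 0 in every library, the macrophage genes Adgre1, Ptprc, and Aif1 were at 0 in 23, 22, and 17 libraries, Csf1r had a median of 0.117 TPM, and Cd68 was at 55.1 to 102.3 TPM. In bulk RNA, fewer cells of a type and less RNA per cell cannot be told apart, and the part of any of these levels in the results was not tested.

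Promoter windows were read for the genes at the end of the chain that fell together at 4 Hz, since Tfam, Tfb2m, and Polrmt are textbook targets of NRF1 and GABP, and for Esrra, which was called higher there on the CPM scale only. Each window runs from 250 bases before the annotated start to 50 after it (RefSeq, build GRCm38.p6, gene strand, 5′ to 3′). Capitals mark the core of the NRF1 element, GCGCANGC, or the core of the GABP element, CCGGAAGT, searched on both strands. The windows are Tfam at chr10:71237995-71238294, minus strand, Tfb2m at chr1:179546227-179546526, minus strand, Polrmt at chr10:79746532-79746831, minus strand, and Esrra at chr19:6921759-6922058, minus strand.
Tfam: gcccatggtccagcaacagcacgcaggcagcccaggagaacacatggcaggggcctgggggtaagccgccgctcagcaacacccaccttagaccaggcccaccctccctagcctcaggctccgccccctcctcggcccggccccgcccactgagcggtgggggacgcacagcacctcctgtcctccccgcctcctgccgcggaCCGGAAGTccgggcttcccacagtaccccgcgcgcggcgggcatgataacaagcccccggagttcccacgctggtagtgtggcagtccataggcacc
Tfb2m: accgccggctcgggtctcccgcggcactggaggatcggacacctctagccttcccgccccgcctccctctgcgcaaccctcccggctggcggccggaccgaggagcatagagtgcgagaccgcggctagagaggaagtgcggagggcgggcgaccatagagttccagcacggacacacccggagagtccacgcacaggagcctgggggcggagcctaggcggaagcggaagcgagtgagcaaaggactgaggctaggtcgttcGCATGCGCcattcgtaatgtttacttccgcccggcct
Polrmt: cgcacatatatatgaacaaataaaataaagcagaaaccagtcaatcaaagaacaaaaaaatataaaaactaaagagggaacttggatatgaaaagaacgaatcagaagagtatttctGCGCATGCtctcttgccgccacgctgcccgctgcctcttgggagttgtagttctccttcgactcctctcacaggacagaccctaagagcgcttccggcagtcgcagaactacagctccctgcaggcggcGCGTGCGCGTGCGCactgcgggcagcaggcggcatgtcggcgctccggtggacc
Esrra: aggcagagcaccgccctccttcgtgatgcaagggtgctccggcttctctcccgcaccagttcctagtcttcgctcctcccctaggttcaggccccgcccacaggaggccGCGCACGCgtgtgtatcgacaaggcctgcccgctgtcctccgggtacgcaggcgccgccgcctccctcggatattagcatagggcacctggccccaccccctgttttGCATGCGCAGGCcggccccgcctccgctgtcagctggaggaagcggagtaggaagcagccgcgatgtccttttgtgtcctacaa

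The Tfam window held 1 GABP core, from 47 to 40 bases before the start. The Tfb2m window held 1 NRF1 core, at bases 14 to 21 after the start. The Polrmt window held 3 NRF1 cores, of which 2 overlap each other across the start, and the Esrra window also held 3, of which 2 overlap. The NRF1 core was found in 9.95% and the GABP core in 3.89% of all 32851 windows in that table. The ERR element TCAAGGTCA (0.423% of all windows) and the cAMP response element TGACGTCA (1.79%) were found in none of the windows of the set, and none of the 4 motifs was found in the windows of Ppargc1a, Pprc1, Nrf1, or Gabpa. Windows were found for 8 of the 9 genes, 9 windows in all, and Ppargc1b had no entry. A match describes letters only, and Esrra, which rose on the CPM scale, and Polrmt, which fell, carried the same motif.

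**Figure D1:**
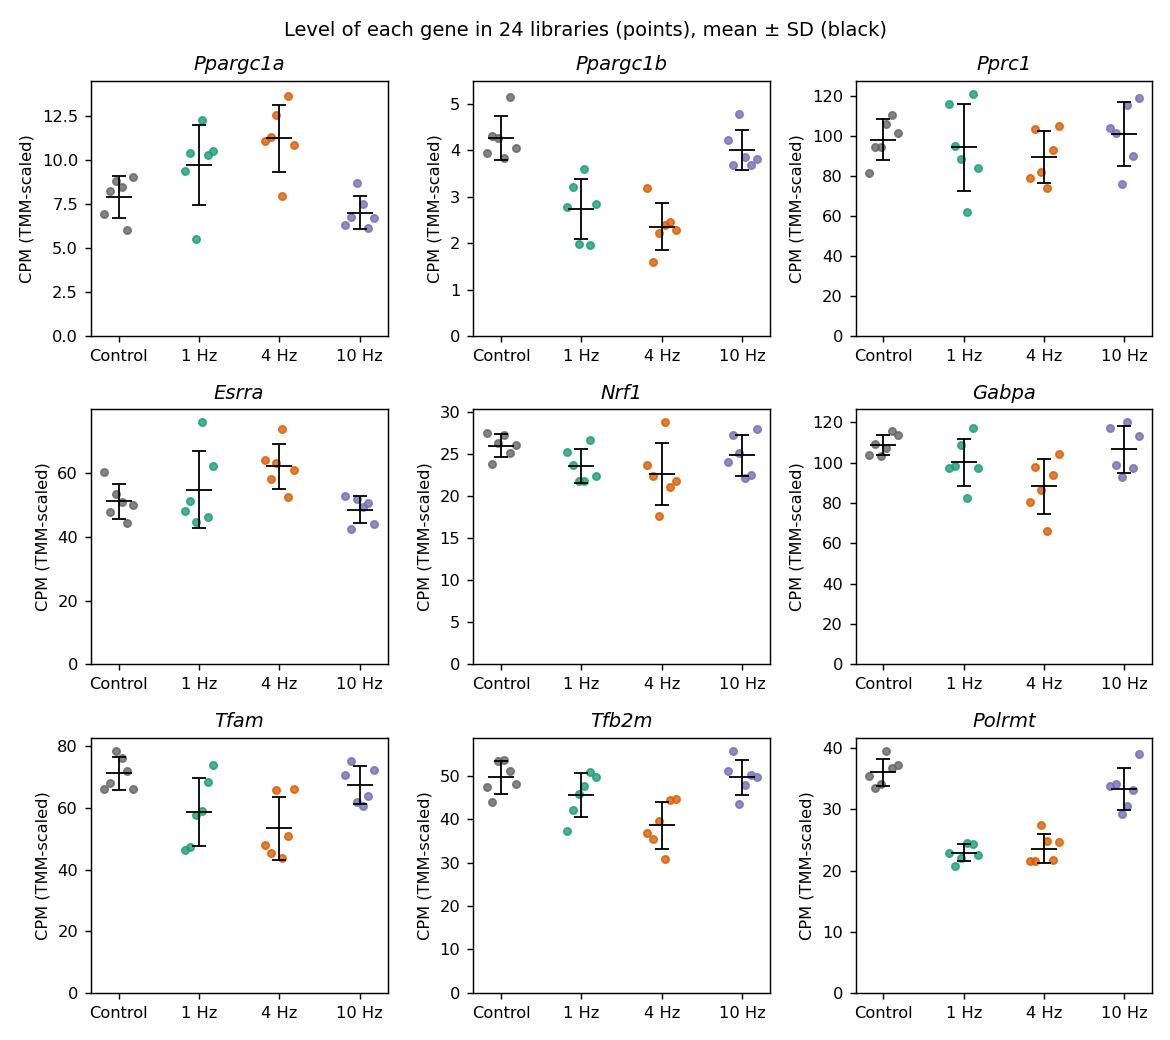
Level of each of the 9 genes in the 24 libraries, in CPM after TMM scaling (y axis, from 0), by condition (x axis); points are libraries and black bars are the mean ± SD of 6. Polrmt and Ppargc1b lie below every control in all 6 libraries at 1 Hz and at 4 Hz, while Ppargc1a at 4 Hz lies above every control in 5 of 6 libraries.

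In the controls, the 9 genes fell into an abundant and a scarce group. Tfam was the most abundant at a mean of 88.9 TPM, with its lowest library (70.5) above the highest of Gabpa (51.8), which followed at 47.9. Esrra (39.98), Tfb2m (35.1), Pprc1 (30.8), Polrmt (21.8), and Nrf1 (20.8) came next, and the libraries of each neighbour in that order overlapped. The scarce group was Ppargc1a at 2.61 TPM and Ppargc1b at 2.06 TPM, whose ranges overlapped each other in the controls but lay below all the others. At 4 Hz they no longer overlapped, since the lowest Ppargc1a library (2.06 TPM) was above the highest Ppargc1b library (1.08 TPM). The estimated counts behind the scarce genes were 50 to 201 per library for Ppargc1a and 16 to 74 for Ppargc1b, which makes these the least precise of the 9, while none of the other 7 fell under 127.

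Ppargc1a encodes PGC-1 alpha and lies on mouse chromosome 5 (GRCm39, 51611592 to 51725068, minus strand). The lowest, median, and highest control libraries of Ppargc1a were at 5.997, 8.36, and 9.02 CPM, against 5.53, 10.3, and 12.3 at 1 Hz, 7.96, 11.2, and 13.7 at 4 Hz, and 6.15, 6.73, and 8.67 at 10 Hz. At 4 Hz, 5 libraries were above all controls and replicate 4 (7.96 CPM) was within them. At 1 Hz, 5 libraries were again above all controls, while replicate 3, at 5.53 CPM, was below all of them. The log2(fold change) was 0.50 at 4 Hz (SE 0.147, edgeR, adjusted p = 0.0066). The value at 1 Hz, 0.31 (SE 0.146, adjusted p = 0.097), was called once replicate 3 was left out (0.41, adjusted p = 0.015). Without the 4 libraries of low TMM factor the 4 Hz value was 0.53 and the 1 Hz value 0.17 (adjusted p = 0.0048 and 0.41). At 10 Hz it was -0.18 (95% interval -0.49 to 0.13, adjusted p = 0.86), and the direct test put 10 Hz below 4 Hz by a log2 of -0.68 (adjusted p = 9.3e-04) and below 1 Hz by -0.49 (adjusted p = 0.019).

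The rise of Ppargc1a depended on the scale of the counts. On log2(TPM + 1), the 4 Hz difference was 0.14 and the 1 Hz difference turned to -0.13 (limma, adjusted p = 0.54 and 0.59). That scale also moved the median of all genes, to -0.14 at 1 Hz and -0.21 at 4 Hz, against 0.04 and 0.06 in edgeR. Relative to those medians, Ppargc1a differed at 4 Hz by 0.35 on TPM and by 0.44 on CPM, and at 1 Hz by 0.01 on TPM and by 0.27 on CPM. The transcript length by which salmon turned its counts into TPM was not constant either: relative to the control mean it ran from 0.643 to 1.31 in the controls, 0.816 to 1.32 at 1 Hz, 0.806 to 1.24 at 4 Hz, and 0.899 to 1.32 at 10 Hz. The long and short transcript forms of Ppargc1a were summed into 1 gene value, so their shares were not measured here, and the part of this length in the difference between scales was not tested.

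Ppargc1b encodes PGC-1 beta, the close relative that also drives mitochondrial and fat-burning genes but is not known as the contraction-induced form. It is at chromosome 18 (GRCm39, 61431195 to 61533735, minus strand). Its lowest, median, and highest libraries were at 3.83, 4.15, and 5.15 CPM in the controls, 1.97, 2.81, and 3.60 at 1 Hz, 1.60, 2.33, and 3.18 at 4 Hz, and 3.68, 3.83, and 4.78 at 10 Hz. All 6 libraries at 1 Hz and all 6 at 4 Hz were below the lowest control, with no overlap, whereas 3 of 6 at 10 Hz were within the controls. The log2(fold change) of Ppargc1b was -0.62 ± 0.153 (SE) at 1 Hz and -0.86 ± 0.159 at 4 Hz (edgeR, adjusted p = 0.0026 and 9.3e-05). Ppargc1b was also called lower on log2(TPM + 1), at -0.61 and -0.76 (limma, adjusted p = 3.6e-04 and 1.0e-05). Relative to the median of all genes, these were -0.46 and -0.55 on TPM, beside -0.66 and -0.92 on CPM. The added 1 shrinks differences at such low levels: mean TPM was 2.06 in the controls, 1.01 at 1 Hz, and 0.811 at 4 Hz. The transcript length behind TPM, relative to the control mean, ran from 0.759 to 1.11 in the controls. It ran from 1.09 to 1.12 at 1 Hz and from 1.1 to 1.12 at 4 Hz, and its part was not tested. At 10 Hz the edgeR log2(fold change) was -0.09 (95% interval -0.39 to 0.22), and all 6 libraries at 10 Hz were above all those at 4 Hz (log2 0.78, adjusted p = 5.1e-04).

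Pprc1 encodes PRC, the family member known for its fast response to serum and for work in growing cells, on chromosome 19 (GRCm39, 46033325 to 46061354, plus strand). From lowest through median to highest, its libraries were at 81.7, 97.9, and 110.6 CPM in the controls and at 73.9, 87.3, and 104.7 at 4 Hz. At 1 Hz they spread from 61.7 through 91.6 to 120.7 CPM and at 10 Hz from 76.0 through 102.8 to 119.1 CPM, beyond the controls on both sides. It was called in none of the 3 comparisons, with log2(fold change) values of -0.06 (95% interval -0.33 to 0.21) at 1 Hz (0.10 without the 4 libraries of low TMM factor), -0.13 (-0.40 to 0.14) at 4 Hz, and 0.04 (-0.23 to 0.31) at 10 Hz.

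Set against each other, the 3 coactivators kept their order while the balance of the scarce pair moved. Pprc1 made up 86.8% ± 1.93 (SD, n = 6) of their summed TPM in the controls and 85.8% ± 2.31 at 4 Hz. Ppargc1a made up 4.62%, 7.31%, and 10.9% in the lowest, median, and highest control and 8.80%, 11%, and 13.9% at 4 Hz, so that the groups overlapped. Its mean share went from 7.41% ± 2.08 to 11% ± 2.02, a difference of 3.62 percentage points (two-sided exact permutation test, p = 0.013, adjusted over 9 tests 0.058). That difference passed when shares were taken of CPM (3.72 points, adjusted exact p = 0.019) or when Control replicate 2 was left out (4.32 points, adjusted exact p = 0.019). The share of Ppargc1b went from 5.81% ± 0.572 in the controls to 3.12% ± 0.996 at 4 Hz (exact permutation p = 0.0022, the smallest that 6 against 6 can give, adjusted 0.019), with no library in common range. Taken of CPM, its shares overlapped, at 1.37% to 3.41% against 3.24% to 4.26% in the controls (exact permutation p = 0.0043, adjusted 0.019). At 1 Hz the Ppargc1b share of TPM was 3.82% ± 1.64 (exact permutation test, adjusted p = 0.091), and at 10 Hz it was 5.08% ± 1.35 (exact permutation test, adjusted p = 0.38).

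**Figure D2:**
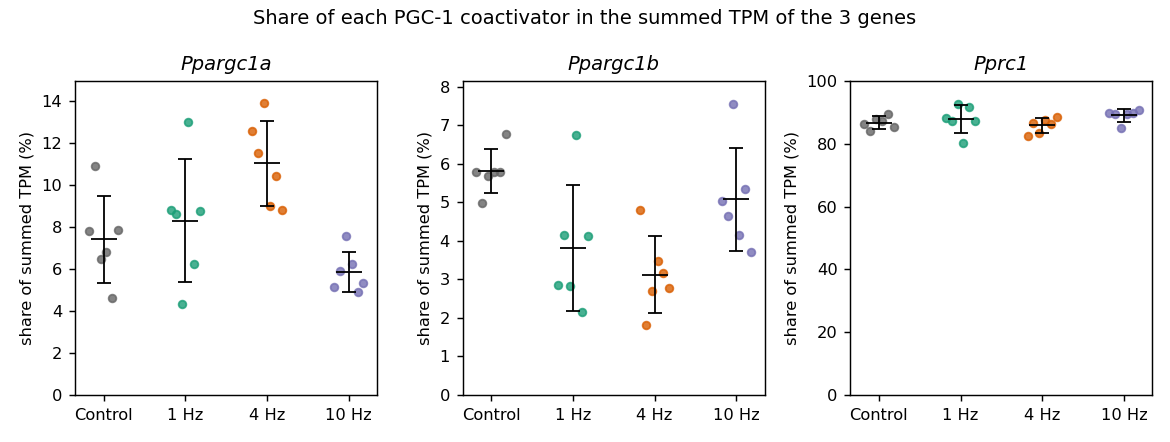
Share of each coactivator (y axis, percent, separate scales from 0) in the summed TPM of Ppargc1a, Ppargc1b, and Pprc1, by condition (x axis); points are libraries and black bars are the mean ± SD of 6. At 4 Hz the Ppargc1b share lies below every control, from 1.82% to 4.80% against 4.99% to 6.79%, and the Ppargc1a share (8.80% to 13.9%) overlaps the controls (4.62% to 10.9%).

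Esrra encodes ERR alpha, the orphan nuclear receptor through which PGC-1 alpha reaches many respiratory genes, on chromosome 19 (GRCm39, 6888338 to 6899336, minus strand). The lowest, median, and highest Esrra levels were 44.3, 50.3, and 60.4 CPM in the controls, 44.5, 49.7, and 75.8 at 1 Hz, 42.3, 49.9, and 52.8 at 10 Hz, and 52.3, 61.9, and 73.8 at 4 Hz, where 4 of 6 were above all controls. The log2(fold change) at 4 Hz was 0.28 (SE 0.11, adjusted p = 0.036, edgeR), which was called on the CPM scale and turned to -0.04 (adjusted p = 0.79, limma) on log2(TPM + 1), or 0.17 above the median of all genes there. The call was lost when any 1 of 8 of the 12 libraries was left out (Control replicates 2 to 6 and 4 Hz replicates 1, 3, and 4), with the highest adjusted p, 0.15, without 4 Hz replicate 4 (0.20). Without the 4 libraries of low TMM factor it was 0.18 (adjusted p = 0.098). At 1 Hz it was 0.10 (95% interval -0.12 to 0.33), which turned to -0.11 without those 4 libraries and to -0.10 on log2(TPM + 1), and at 10 Hz it was -0.08 (-0.30 to 0.15). The Esrra locus overlaps the protein-coding gene Trmt112 on the opposite strand, and how counting used strand is not given in the sources used here, although the library kit named in the methods is directional.

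Nrf1 encodes nuclear respiratory factor 1, which binds promoters of respiratory chain genes and of the mitochondrial DNA factors, on chromosome 6 (GRCm39, 30047892 to 30153462, plus strand). Its lowest, median, and highest libraries were at 23.9, 26.2, and 27.5 CPM in the controls, 21.8, 23.1, and 26.6 at 1 Hz, 17.7, 22.1, and 28.8 at 4 Hz, and 22.1, 24.6, and 27.9 at 10 Hz. At 4 Hz, 5 libraries were below all controls and replicate 4, at 28.8 CPM, was above all of them. The log2(fold change) was -0.20 (SE 0.0916, adjusted p = 0.070, edgeR) with that library and -0.31 (adjusted p = 0.0051) without it. It was also called without the 4 libraries of low TMM factor (-0.25, adjusted p = 0.016), which include that replicate. At 1 Hz it was -0.14 (95% interval -0.33 to 0.05) and at 10 Hz -0.07 (-0.25 to 0.12).

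Gabpa encodes the DNA-binding subunit of GABP, also called NRF-2, on chromosome 16 (GRCm39, 84631140 to 84660672, plus strand). Levels of Gabpa (lowest, median, and highest library) were 103.2, 108.2, and 115.5 CPM in the controls, 82.5, 97.8, and 116.9 at 1 Hz, 66.1, 90.2, and 104.1 at 4 Hz, and 92.7, 105.9, and 119.9 at 10 Hz. At 4 Hz, 5 of 6 were below all controls. Gabpa fell at 4 Hz by 18.8% (log2 -0.30, SE 0.0936, adjusted p = 0.0095, edgeR), and on log2(TPM + 1) the difference was -0.59 (adjusted p = 0.0050, limma). Relative to the median of all genes, Gabpa differed at 4 Hz by -0.38 on TPM and by -0.36 on CPM. At 1 Hz the log2(fold change) was -0.12 (95% interval -0.31 to 0.07). The locus overlaps Atp5pf, which is transcribed from the other strand.

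Tfam, on chromosome 10 (GRCm39, 71061287 to 71074110, minus strand), had its lowest, median, and highest libraries at 66.1, 70.0, and 78.5 CPM in the controls, 46.2, 58.2, and 74.0 at 1 Hz, 43.9, 49.4, and 66.2 at 4 Hz, and 60.5, 67.2, and 75.1 at 10 Hz. At 4 Hz, 5 of 6 libraries were below all controls and the highest, at 66.2 CPM, was just above the lowest control. Tfam fell by 25% at 4 Hz (log2 -0.42, SE 0.113, adjusted p = 0.0036, edgeR). At 1 Hz the log2(fold change) was -0.27 (SE 0.112, adjusted p = 0.055), short of the threshold. It was called without 1 Hz replicate 5 (-0.32, adjusted p = 0.029), without 1 Hz replicate 6 (-0.38, adjusted p = 0.013), and without the 4 libraries of low TMM factor (-0.37, adjusted p = 0.013). The TPM values gave -0.50 at 1 Hz and -0.66 at 4 Hz (limma on log2(TPM + 1), adjusted p = 0.019 and 0.0014). Against the median of all genes, these were -0.36 and -0.45 on TPM, beside -0.32 and -0.48 on CPM.

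Tfb2m, on chromosome 1 (GRCm39, 179355610 to 179374548, minus strand), fell at 4 Hz and not detectably at 1 Hz. Control libraries had a lowest, median, and highest level of 44.0, 49.6, and 53.6 CPM, against 37.2, 46.7, and 51.0 at 1 Hz, 30.9, 38.1, and 44.7 at 4 Hz, and 43.5, 49.9, and 55.7 at 10 Hz. At 4 Hz, 4 of 6 libraries were below all controls. The log2(fold change) was -0.36 (SE 0.0902, adjusted p = 0.0018, edgeR) at 4 Hz and -0.12 (95% interval -0.30 to 0.06) at 1 Hz, and on log2(TPM + 1) the 4 Hz difference was -0.58 (adjusted p = 0.0046, limma). Relative to the median of all genes, the 4 Hz difference was -0.37 on TPM and -0.42 on CPM. Part of the locus is shared with Cnst on the opposite strand.

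Polrmt, the mitochondrial RNA polymerase itself, on chromosome 10 (GRCm39, 79571957 to 79582420, minus strand), had the smallest adjusted p of the 9 genes at 1 and 4 Hz in edgeR, while on log2(TPM + 1) that of Ppargc1b was smaller at both. Across libraries, the lowest, median, and highest levels were 33.5, 36.1, and 39.5 CPM in the controls, 20.8, 22.8, and 24.6 at 1 Hz, 21.5, 23.2, and 27.4 at 4 Hz, and 29.2, 33.4, and 39.0 at 10 Hz. All 12 libraries at 1 and 4 Hz were below every control and below every library at 10 Hz. Polrmt fell by 36.4% at 1 Hz (log2 -0.65, SE 0.0781) and fell by 34.6% at 4 Hz (log2 -0.61, SE 0.0786), with adjusted p = 7.3e-07 and 8.1e-07 in edgeR. On log2(TPM + 1) the differences were -0.64 and -0.93 (limma, adjusted p = 0.0021 and 1.9e-05). Against the median of all genes, these were -0.495 and -0.722 on TPM, beside -0.695 and -0.674 on CPM. At 10 Hz it was -0.12 (95% interval -0.27 to 0.04, adjusted p = 0.77). Neither Tfam nor Polrmt shares its locus with another annotated gene. Pprc1 overlaps the protein-coding gene Ldb1 on the opposite strand, and Ppargc1a, Ppargc1b, and Nrf1 overlap other annotated genes.

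**Figure D3:**
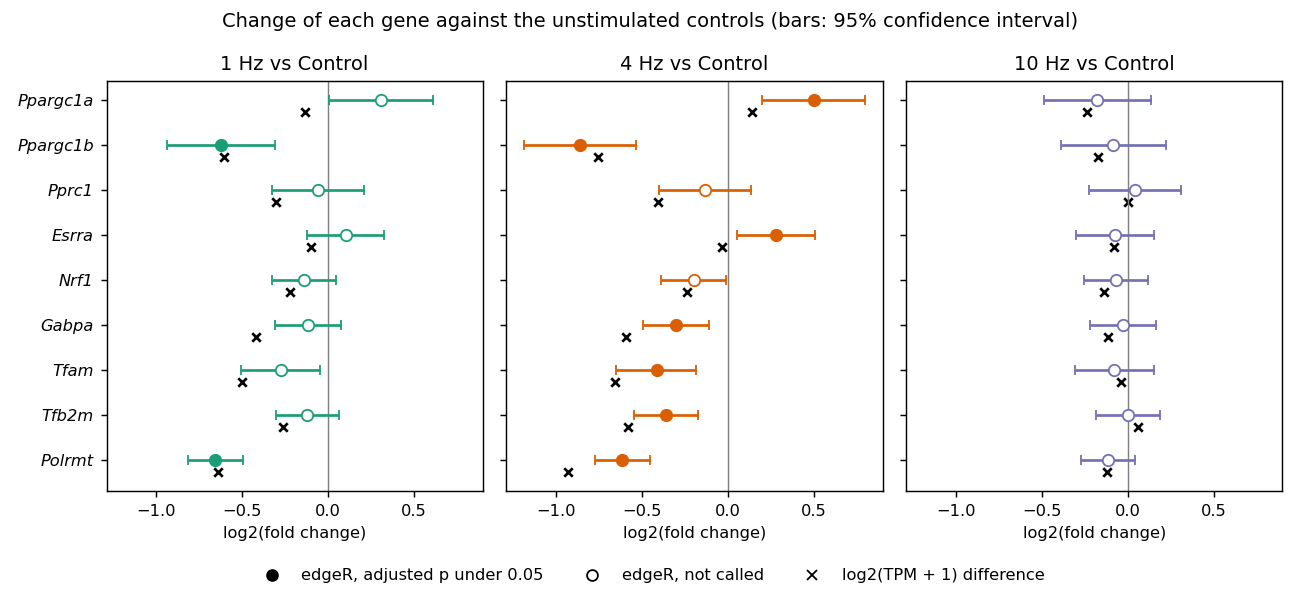
Log2(fold change) of each gene (rows) against the unstimulated controls at 1, 4, and 10 Hz (panels), from edgeR on counts with 95% confidence intervals (circles, filled where the adjusted p was under 0.05) and as the difference on log2(TPM + 1) (crosses). Ppargc1b and Polrmt lie below 0 on both scales at 1 and 4 Hz; Esrra at 1 and 4 Hz and Ppargc1a at 1 Hz lie above 0 in edgeR and below 0 on TPM.

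Counted over the set, 0 genes were called higher and 2 lower at 1 Hz, where 19.2% and 18.1% of all tested genes were called higher and lower. At 4 Hz, 2 were called higher and 5 lower, against 27.5% and 23.9% of all genes. The median log2(fold change) of the 9 was -0.12 at 1 Hz and -0.30 at 4 Hz, beside 0.04 and 0.06 for all genes. At 10 Hz, 0 of the 9 were called by edgeR, DESeq2, or limma, and 0 had an unadjusted edgeR p under 0.05, beside 8.07% of all genes at that unadjusted threshold. All 6 libraries lay on 1 side of all controls for 2 of the 9 genes at 1 Hz and at 4 Hz and for 0 at 10 Hz, beside 14.1%, 27.6%, and 1.64% of all genes. Requiring a log2(fold change) over 0.5 in either direction as well left Ppargc1b and Polrmt at 1 and 4 Hz, beside 14.9% and 25.1% of all genes, and Ppargc1a and Ppargc1b between 10 and 4 Hz, beside 21.2%. The split of calls over all genes depended on the scale, since 48.5% of the genes called at 1 Hz and 46.4% at 4 Hz were lower in edgeR, but 85.8% at either frequency on log2(TPM + 1).

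The frequencies were also compared with each other. Between 4 Hz and 1 Hz, 0 of the 9 genes were called by edgeR, DESeq2, or limma, and 1, Tfb2m, had an unadjusted edgeR p under 0.05 (log2 -0.24, adjusted p = 0.39), as did 11% of all genes. After adjustment, 0% of all genes were called higher and 0% lower. Intervals of the difference between 4 and 1 Hz ran from -0.11 to 0.49 for Ppargc1a and from -0.58 to 0.10 for Ppargc1b, so differences up to those bounds remain possible. Between 10 Hz and 1 Hz, Ppargc1a was lower and Ppargc1b and Polrmt were higher at 10 Hz, beside 13.1% and 14.8% of all genes lower and higher. Between 10 Hz and 4 Hz, 7 of the 9 were called, beside 24.4% of all genes lower and 21.9% higher: Ppargc1a and Esrra (log2 -0.35, adjusted p = 0.011) were lower at 10 Hz, and Ppargc1b, Gabpa (0.27, adjusted p = 0.020), Tfam (0.34, adjusted p = 0.018), Tfb2m (0.36, adjusted p = 0.0023), and Polrmt (0.50, adjusted p = 2.3e-05) were higher. These comparisons share libraries with those against the controls, so the counts are not independent of each other.

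Other genes of the pathway were followed in 5 lists: transcription factors that PGC-1 proteins work with, enzymes and cofactors that act on PGC-1 alpha, nuclear genes for the upkeep and transcription of mitochondrial DNA, nuclear genes of mitochondrial proteins, and the 13 protein-coding genes of the mitochondrial genome. On log2(TPM + 1) at 4 Hz, Foxo1, Lpin1, and Cox4i1 were also called higher (0.50, 0.51, and 0.31), and Creb1, Kat2a, Lrpprc, and Tomm70a lower (-0.56, -1.31, -0.84, and -1.16). The median of all genes on that scale was -0.21. Counts of calls over these lists read against the shares of all genes given above for edgeR, and on log2(TPM + 1) against 3.64% higher and 21.9% lower at 1 Hz and 5.92% higher and 35.9% lower at 4 Hz.

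Among 14 tested partner factors, 5 were called higher and 3 lower at 1 Hz and 6 higher and 5 lower at 4 Hz in edgeR. On log2(TPM + 1) the balance turned, with 1 higher and 3 lower at 1 Hz and 1 higher and 6 lower at 4 Hz. The calls over all genes turned too, from 48.5% and 46.4% lower at 1 and 4 Hz to 85.8% at both. Foxo1, a factor that PGC-1 alpha coactivates in fasting metabolism, had a mean of 31.0 CPM in the controls (SD 2.86, n = 6) and rose to 57.8 (SD 4.57) at 4 Hz. Its changes at 1, 4, and 10 Hz were 0.58, 0.90, and -0.06 on the log2 scale (edgeR, adjusted p = 7.8e-06, 8.0e-09, and 0.94). Creb1, the cAMP-responsive factor known to drive the Ppargc1a promoter, fell from 37.7 ± 2.73 CPM to 23.4 ± 2.83 CPM at 4 Hz, with log2 changes of -0.55, -0.69, and -0.11 in the same order (adjusted p = 1.8e-04, 7.3e-06, and 0.88). All 6 libraries at 1 Hz and at 4 Hz were above the controls for Foxo1 and below them for Creb1. Of the beta subunits that pair with Gabpa, named after their values were seen, Gabpb1 (log2 -0.28, adjusted p = 0.022) and Gabpb2 (-0.56, adjusted p = 0.0095) fell with it at 4 Hz.

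Among 21 tested regulators, 3 were called higher and 8 lower at 1 Hz and 4 higher and 8 lower at 4 Hz in edgeR. By limma on log2(TPM + 1), 0 were higher and 5 lower at 1 Hz and 1 higher and 10 lower at 4 Hz. Without the 4 libraries of low TMM factor, the 11 regulators called at 1 Hz came down to 7. Lpin1, which encodes lipin 1, a phosphatidate phosphatase that also works with PGC-1 alpha in the nucleus, rose by 0.60 and 0.87 on the log2 scale at 1 and 4 Hz (edgeR, adjusted p = 3.6e-05 and 1.2e-07) and was at -0.06 at 10 Hz (adjusted p = 0.95). Kat2a, which encodes the acetyltransferase GCN5 that acetylates and restrains PGC-1 alpha, fell from 47.7 ± 3.72 CPM in the controls to 23.98 ± 2.54 at 1 Hz and 22.7 ± 1.40 at 4 Hz. Its log2(fold change) of -0.99 and -1.07 (edgeR, adjusted p = 2.3e-10 and 4.6e-11) ranked 8 by p among all tested genes in both comparisons, and the 10 Hz value was -0.19 (adjusted p = 0.45).

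The 22 tested genes of mitochondrial DNA upkeep had 2 called higher and 10 lower at 1 Hz and 5 higher and 9 lower at 4 Hz, with medians of -0.18 and -0.16 in edgeR. Of these, 21 were tested on log2(TPM + 1), where 0 were higher and 10 lower at 1 Hz and 0 higher and 12 lower at 4 Hz. Tfb1m, the relative of Tfb2m that methylates mitochondrial ribosomal RNA, rose where Tfb2m fell, from 6.95 ± 1.24 CPM to 10.1 ± 1.35 CPM at 4 Hz (log2 0.52, edgeR, adjusted p = 0.0039). Its values at 1 and 10 Hz were 0.26 and -0.12 (adjusted p = 0.15 and 0.93), and on log2(TPM + 1) the 4 Hz difference was 0.20 (limma, adjusted p = 0.17), short of the threshold. Lrpprc, which stabilises mitochondrial messenger RNA, fell from 63.0 ± 8.01 CPM to 43.1 ± 3.69 at 1 Hz and 41.3 ± 2.29 at 4 Hz, and all 12 of those libraries were below every control. Its changes at 1, 4, and 10 Hz were -0.55, -0.61, and -0.14 on the log2 scale (edgeR, adjusted p = 7.2e-06, 8.2e-07, and 0.69).

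The 20 nuclear genes of mitochondrial proteins were called higher more than lower at 4 Hz on the CPM scale, 8 against 3, and the order turned on log2(TPM + 1), with 3 higher and 8 lower. Over all genes the calls at 4 Hz turned the same way, with 46.4% lower in edgeR and 85.8% on log2(TPM + 1). At 1 Hz, 1 was higher and 3 lower in edgeR and 0 higher and 5 lower on log2(TPM + 1). Cox4i1, a subunit of cytochrome c oxidase, rose at 4 Hz from 255.0 ± 19.4 CPM to 406.8 ± 99.0 (log2 0.67, edgeR, adjusted p = 0.0016). Its values at 1 and 10 Hz were 0.40 and -0.03 (adjusted p = 0.056 and 0.99). Tomm70a, a receptor of the protein import machinery of the outer membrane, fell from 234.4 ± 12.4 CPM to 151.3 ± 16.4 at 1 Hz and 130.4 ± 19.5 at 4 Hz (log2 -0.63 and -0.85, edgeR, adjusted p = 9.6e-06 and 9.1e-08).

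Of the 13 genes that POLRMT transcribes, 0 were called lower at 1 or 4 Hz, and in edgeR 11 were above 0 at 1 Hz and all 13 at 4 Hz. Their intervals were wide: that of mt-Nd4 at 1 Hz, -0.78 to 1.32, holds a fall as large as that of Polrmt. In edgeR the median log2(fold change) of the 13 at 1, 4, and 10 Hz was 0.35, 0.81, and -0.11, and on log2(TPM + 1) it was -0.05, -0.10, and -0.10, so the sign at 1 and 4 Hz turned with the scale. The medians of all genes on log2(TPM + 1) were -0.14, -0.21, and -0.01, below those of the 13 at 1 and 4 Hz. Only mt-Nd1 passed, at 4 Hz, with 1180 ± 276 CPM in the controls and 2997 ± 3030 at 4 Hz (log2 1.34, SE 0.504, edgeR, adjusted p = 0.031), and without the 4 libraries of low TMM factor 0 of the 13 were called. At 4 Hz, 0 were also called without a filter on low counts, with only the 2 conditions in the fit, with the replicate number in the fit, and on log2(TPM + 1). DESeq2 called 2. The share of TPM held by the 13 genes had its lowest, median, and highest library at 2.43%, 3.54%, and 4.79% in the controls, 2.38%, 2.76%, and 6.73% at 1 Hz, 0.792%, 3.43%, and 11.7% at 4 Hz, and 2.56%, 3.19%, and 4.38% at 10 Hz. The 4 Hz libraries thus lay on both sides of the controls, with replicate 3 the highest and replicate 1 the lowest. Low-input samples were ribodepleted rather than selected for poly(A), per the labels, without a note of which, and the part of library type in this spread was not tested.

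**Figure D4:**
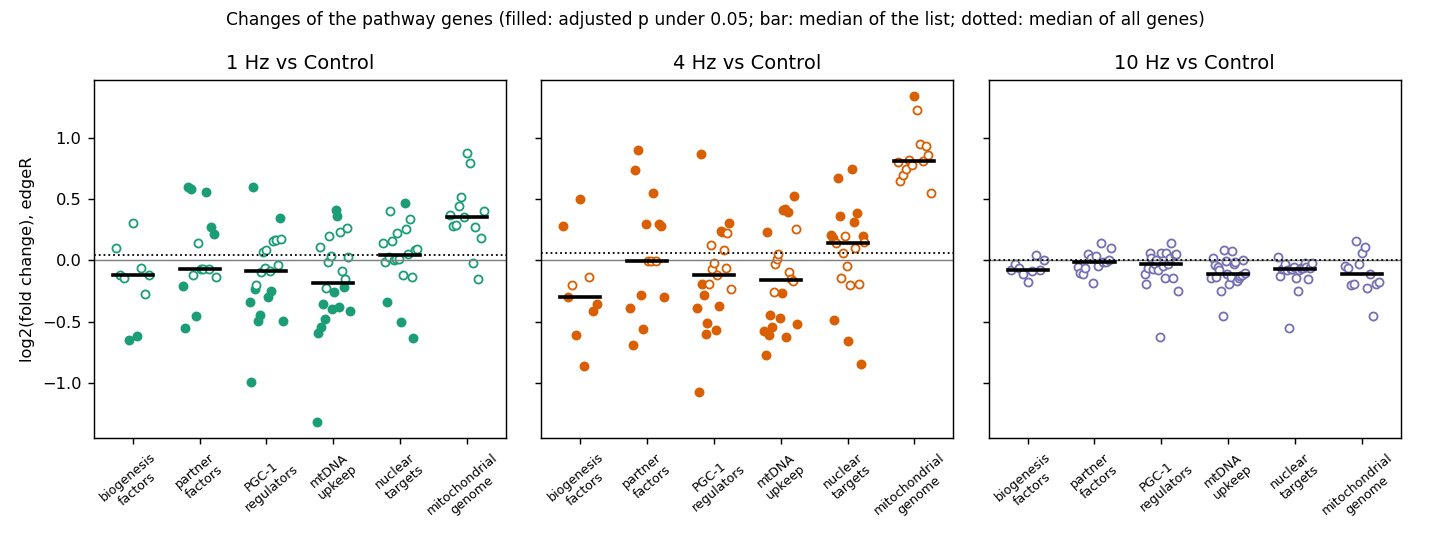
Log2(fold change) in edgeR (y axis) of the 9 biogenesis factors and of the tested genes in the 5 pathway lists (x axis) at 1, 4, and 10 Hz against the controls; each point is a gene, filled where the adjusted p was under 0.05, with the median of the list (bar) and of all genes (dotted line). The biogenesis factors have a median of -0.30 at 4 Hz and the mitochondrial genome one of 0.81, which turns to -0.10 on log2(TPM + 1). All genes have a median of -0.21 at 4 Hz on that scale.

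At 10 Hz, 0 genes of the 5 lists were called by edgeR, DESeq2, or limma. At an unadjusted edgeR p under 0.05 there were 3 regulators, 3 genes of mitochondrial DNA upkeep, and 1 nuclear gene of a mitochondrial protein, with 0 in the other lists, where 8.07% of all genes passed that threshold.

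The genes most like each coactivator across the 24 libraries were those with the smallest root mean square difference in log2 CPM, centred on the controls, among 11739 candidates. For Ppargc1a these were Pfn2 (0.199), Pknox2 (0.201), and Lrrc2 (0.204), for Ppargc1b Prmt3 (0.214), Rad1 (0.218), and Syt12 (0.226), and for Pprc1 Patl1 (0.0958), Uhrf1bp1l (0.0987), and Zzz3 (0.102). Of the named genes, Pfn2 encodes an actin-binding profilin and Prmt3 an arginine methyltransferase of ribosomal protein. The 3 genes nearest Ppargc1a were higher than the controls by 0.41 to 0.49 on the centred log2 scale at 4 Hz, and the 3 nearest Ppargc1b were at -0.86 to -0.70. These directions follow from how the genes were picked and are not a separate result.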

How the data were processed

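RNA of 24 C2C12 tissues was sequenced by the authors, with 6 libraries per condition. The deposited estimated counts per gene are salmon's, unnormalized gene sums over transcripts. The TPM values were deposited as the authors' nf-core/rnaseq run gave them, divided by transcript length and scaled to 1000000 per library. The authors' text gives BWA-MEM mapping to GRCm39, the Ensembl annotation, and a directional library kit, and the submitters' processing notes also name STAR without a role. How counting used strand is not given in the sources used here.

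Rounded counts passed filterByExpr (minimum count 10 and total 15) and were given TMM factors. The quasi-likelihood F test of edgeR 4.0.16 (R 4.3.3) was run in 1 fit of 24 libraries, with Benjamini-Hochberg adjustment over 13315 genes and a threshold of 0.05. Data were simulated from the control means, with the library sizes and spread of all 24 libraries. In these, edgeR recovered 195 of 200 genes changed by a log2 of 1 in either direction, among 13067, with 5 false calls. Smaller changes were not simulated. TPM values were tested by limma 3.58.1 after a pseudocount of 1, with genes at 1 TPM or more in 6 libraries. TPM shares were compared by two-sided exact permutation (924 arrangements) over 9 tests. Alternatives were RLE or upper-quartile scaling, an unfiltered table, a strict filter (at least 50 counts in 6 libraries), fits of 2 conditions, a replicate block, DESeq2 1.42.0, a pseudocount of 0.1, a log2(fold change) threshold of 0.5, and leaving out each library. Leaving out the 4 libraries with a TMM factor under 0.95 was chosen after seeing the data.

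The set of genes, the lists, and the tests were chosen with earlier results of these data known. All 9 genes are named, and from each list the most significant gene up and the most significant gene down at 4 Hz. The mtDNA, partner, regulator, and target lists come from general knowledge. Likeness used log2 CPM (prior count 2) of genes with an average of at least 1. Gene positions come from GENCODE M39, where 98.9% of identifiers were found. The depth, 8052369 to 18159144 counts per library, and 6 libraries per condition set the precision.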

Additional observations from a re-analysis of the deposited data

Results flagged for a closer look

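Of the values examined, 2 stood apart from the other libraries of their condition, out of 52 groups of 6 examined, and chance marks about 1 group in 20. Control replicate 5 had Ppargc1b at 5.15 CPM, with the next library at 4.32, so that the gap took 0.633 of the range, just over the limit of 0.625. Ppargc1b stayed below the controls and called at 1 and 4 Hz when any 1 library, this one included, was left out. At 10 Hz, replicate 3 had Pprc1 at 84.9% of the summed TPM of the coactivators, with the next library at 89.5% and a ratio of 0.756.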

How the results depend on the processing

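Of 102 values of called-gene counts and of the Ppargc1a share under alternatives other than leaving out a library, 96 kept their direction and side of the threshold or, for counts, stayed within 1.5 times. Within that span, list genes called at 1 and 4 Hz came down from 35 and 49 to 29 and 34 without a filter on low counts and to 24 and 41 on log2(TPM + 1). The strict filter left 1 of the 9 genes called at 1 Hz, because Ppargc1b was not tested there. Requiring a log2(fold change) over 0.5 as well left 2 of the 9 at 4 Hz, 2 between 10 and 4 Hz, and 11 and 22 of the list genes at 1 and 4 Hz. Shares of all genes by that rule were 14.9% at 1 Hz, 25.1% at 4 Hz, and 21.2% between 10 and 4 Hz. The share of Ppargc1a at 4 Hz passed on CPM (3.72 points). By the same rules, 381 of 432 values for single genes and single lists stayed the same. Of the rest, 15 changed sign, 5 lost a call, 8 gained a call, and 23 were counts that moved further.

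Tfb2m at 10 Hz, 0.002 in edgeR, turned to -0.003 (RLE, upper quartile, DESeq2), -0.002 (strict filter, 2 conditions), and -0.008 (no filter, low-factor libraries left out). On log2(TPM + 1) and log2(TPM + 0.1), Ppargc1a at 1 Hz turned to -0.134 and -0.194, Esrra at 1 Hz to -0.098 and -0.1, and Esrra at 4 Hz to -0.036 and -0.037, and Ppargc1a at 4 Hz lost its call (0.138 and 0.186). Esrra at 4 Hz also lost it with RLE (0.253, adjusted p = 0.052) and without a filter (0.236, adjusted p = 0.10). Without the low-factor libraries, Pprc1 at 1 Hz turned to 0.098 and Esrra to -0.107. Nrf1 at 4 Hz was called with RLE (adjusted p = 0.044) and DESeq2 (adjusted p = 0.038), and Tfam at 1 Hz with DESeq2 (adjusted p = 0.046). The causes of these shifts were not tested.

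Leaving out each library gave 2 to 3 of the 9 called at 1 Hz, 6 to 7 at 4 Hz, 0 at 10 Hz and between 4 and 1 Hz, 2 to 3 between 10 and 1 Hz, and 6 to 8 between 10 and 4 Hz. Ppargc1b ran from -0.752 to -0.541 at 1 Hz and from -0.957 to -0.768 at 4 Hz, and Polrmt from -0.698 to -0.628 and from -0.69 to -0.588, all called. Ranges that crossed 0 were Pprc1 (-0.144 to 0.017) and Esrra (-0.039 to 0.155) at 1 Hz, and Pprc1 (-0.008 to 0.112), Gabpa (-0.065 to 0.008), and Tfb2m (-0.031 to 0.035) at 10 Hz. The Ppargc1a share difference ran from -0.0584 points (without 1 Hz replicate 4) to 1.68 at 1 Hz, from 3.05 to 4.32 at 4 Hz, and from -2.12 to -0.863 at 10 Hz.

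No pairing of tissues by replicate number was seen. With each condition's mean taken off, same-numbered libraries had correlations from -0.332 to 0.242. Such values cannot show that the numbers are unrelated to how the tissues were grown. With the number as a replicate block, 4613 genes were called at 1 Hz (4962 without), 6647 at 4 Hz (6842), and 3 at 10 Hz (5), and 3, 7, and 0 of the 9, as Tfam at 1 Hz passed (-0.289, adjusted p = 0.042). The 16 to 74 counts of Ppargc1b limit how small a change could be seen.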

Other observations

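Some genes of the pathway lists outside the rule for named genes are given here as values, chosen after these were seen because subunits of 1 machine had opposite signs on the CPM scale. No gene of mitochondrial DNA upkeep was called higher on log2(TPM + 1) at 1 or 4 Hz (0 of 21). Of the proteins that copy mitochondrial DNA, the helicase gene Twnk fell at 1 and 4 Hz (log2 -0.41 and -0.52, edgeR, adjusted p = 4.5e-04 and 2.0e-05), as did the catalytic polymerase gene Polg (-0.26 and -0.26, adjusted p = 0.0036 and 0.0018), while its accessory subunit Polg2 rose (0.42 and 0.41, adjusted p = 0.026 and 0.022) on the CPM scale but was not called on log2(TPM + 1) (0.12 and 0.03, limma). The nuclease genes Exog (-0.60 and -0.77, adjusted p = 5.1e-04 and 2.0e-05) and Mgme1 (-0.36 and -0.45, adjusted p = 0.0043 and 4.2e-04) fell, and Primpol, which restarts stalled copying, rose on the CPM scale (0.36 and 0.42, adjusted p = 0.027 and 0.0078) but was not called on log2(TPM + 1) (0.22 and 0.08).

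Among the subunits of AMPK, the energy-sensing kinase that phosphorylates PGC-1 alpha, the catalytic Prkaa1 fell at 1 and 4 Hz (log2 -0.30 and -0.57, edgeR, adjusted p = 0.0063 and 5.7e-06) together with Prkab1 (-0.25 and -0.37, adjusted p = 0.033 and 0.0016). The other catalytic gene, Prkaa2, was not called in edgeR (-0.085 and -0.116, adjusted p = 0.59 and 0.43), and neither were Prkag2 and Prkag3. On log2(TPM + 1), Prkag3 was called lower at 4 Hz (-0.36, limma, adjusted p = 0.013). Prkab2 at 4 Hz (0.24, adjusted p = 0.0069) and Prkag1 at both frequencies (0.17 and 0.23, adjusted p = 0.027 and 0.0024) rose on the CPM scale and turned to values below 0 on log2(TPM + 1), at -0.13 for Prkab2 at 4 Hz and -0.04 and -0.11 for Prkag1, none called. Relative to the median of all genes on TPM, Prkab2 was at 0.08 and Prkag1 at 0.11 and 0.10. Esrrg, the muscle-enriched relative of Esrra, rose by 0.60 and 0.74 on the log2 scale (adjusted p = 0.0013 and 1.0e-04), with 0.24 and 0.26 on log2(TPM + 1), not called.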
